A study of Mus musculus with 24 samples.

Results

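Schwann cells are the glia of peripheral nerves. Myelinating Schwann cells wrap single large axons in a compacted membrane sheath, whereas the thin sympathetic fibres that supply brown fat run mostly in bundles held by non-myelinating Schwann cells. Transcripts of 6 genes of this lineage were followed here as a reading of nerve tissue in a fat depot: Mbp, Pmp22, Sox10, S100b, Prx and Mal. They were taken by name from the count table, where all 6 were found among 36144 genes, and all 6 had enough reads to be among the 13129 genes tested.

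The samples were interscapular brown adipose tissue (iBAT), the heat-producing fat between the shoulder blades, from 24 mice aged 6 to 8 months. Wild-type mice (WT, C57Bl/6J) and Th-Cre mice (B6.129X1- Tht1(cre)Te/Kieg) received saline or deschloroclozapine (DCZ), a ligand of designer receptors, 30 minutes before collection, with 6 mice and 3 of each sex in each of the 4 groups. In Th-Cre mice the tyrosine hydroxylase gene drives Cre, so that it is made in cells that produce catecholamines, sympathetic neurons among them. The series title names chemogenetic activation of sympathetic neurons that project to iBAT, but no source used here names the receptor, how it was delivered, or whether WT mice received it. Each library is labelled with its own mouse, and libraries 1 to 12 were all WT and 13 to 24 all Th-Cre, so genotype and library number cannot be told apart.

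The libraries held between 11.9 and 22.9 M estimated counts. Levels are counts scaled to library size (CPM), with edgeR's TMM factors. In 6 libraries the mean log2 CPM of 13 skeletal muscle genes was above 1: DN2091 and DN2075 of Th-Cre DCZ, DN2086, DN2087 and DN2094 of Th-Cre saline, and WT 12 of WT saline. Results that these libraries touch are also given without them. A gene is said to have risen or fallen where its adjusted p in the edgeR quasi-likelihood test over all 24 libraries was under 0.05.

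The 6 genes have different places in the sheath. Sox10 encodes the transcription factor that Schwann cells need at every stage. Mbp (myelin basic protein) and Pmp22 (peripheral myelin protein 22) encode proteins of compact myelin, Prx encodes periaxin, a scaffold that links the sheath to the basal lamina, and Mal encodes a lipid-raft protein of myelin membranes. S100b encodes a calcium-binding protein used as a general Schwann cell marker. Several are also known outside Schwann cells: S100b in adipocytes, Pmp22 in fibroblasts and endothelium, Mal in epithelia and T cells, and the Mbp locus in the Golli transcripts of other cell types. Gene-level counts do not separate these sources, and in bulk tissue fewer cells of a type and less RNA per cell cannot be told apart.

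On GRCm38 with GENCODE M21, Sox10 lies on chromosome 15 (79154908 to 79165240, minus strand), Pmp22 on chromosome 11 (63128982 to 63159547, plus strand), Prx on chromosome 7 (27499324 to 27520214, plus strand), Mal on chromosome 2 (127633226 to 127656695, minus strand) and S100b on chromosome 10 (76253853 to 76261159, plus strand). On the opposite strand S100b overlaps Dip2a and Prx overlaps Gm15541. No source used here says whether counting used strand, so such pairs could share reads.

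The 250 bases before the annotated start are shown for Prx and Mal, whose levels moved together over the libraries, and for S100b, whose level did not move with them. They come from the RefSeq promoter table on GRCm38.p6, which held 4 of the 6 genes. Each is written 5′ to 3′ in the direction of its gene, at chr7:27499074-27499323 (plus strand) for Prx, chr2:127656696-127656945 (minus strand) for Mal and chr10:76253586-76253835 (plus strand) for S100b. Capitals mark matches on either strand to any of 5 motifs searched: ACAAAG and ACAATG (SOX factors), GTGGGNG and GCGGGNG (EGR factors such as Egr2) and CCAAT (the CCAAT box).
Prx: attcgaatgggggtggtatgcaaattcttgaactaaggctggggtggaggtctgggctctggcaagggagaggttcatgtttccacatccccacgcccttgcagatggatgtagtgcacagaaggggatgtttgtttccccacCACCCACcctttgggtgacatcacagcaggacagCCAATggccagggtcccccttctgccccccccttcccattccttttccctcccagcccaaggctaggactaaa
Mal: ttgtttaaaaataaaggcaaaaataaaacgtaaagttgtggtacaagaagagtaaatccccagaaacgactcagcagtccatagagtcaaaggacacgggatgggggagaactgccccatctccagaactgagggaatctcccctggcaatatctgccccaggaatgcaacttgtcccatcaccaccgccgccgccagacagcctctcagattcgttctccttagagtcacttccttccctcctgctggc
S100b: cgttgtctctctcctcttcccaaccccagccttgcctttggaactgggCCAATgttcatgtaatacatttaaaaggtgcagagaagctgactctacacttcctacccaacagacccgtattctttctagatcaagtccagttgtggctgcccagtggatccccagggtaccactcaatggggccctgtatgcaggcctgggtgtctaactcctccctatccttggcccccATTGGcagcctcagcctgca

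The Prx window held 1 EGR match, which reads CACCCAC on the gene strand and begins 107 bases before the start, and 1 CCAAT match that begins 73 bases before it. The S100b window held 2 CCAAT matches, at 202 and 20 bases before the start. The Mal window held none of the 5 motifs, and no SOX motif was found in any of the 3 windows. Over 32851 RefSeq promoters of the same length, 25.2% held either SOX motif, 41.8% held either EGR motif and 33.8% held CCAAT on either strand, so none of these matches is rare. No match overlapped another, and a match is a description of letters only. The EGR and CCAAT letters were added to the search after the SOX letters gave no match in these 3 windows.

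Per length of annotated exon, S100b was the most abundant of the 6 and Prx the least. The length joins the exons of all annotated transcripts of a gene (8469 bases over 16 transcripts for Mbp), so the order depends on it. Without division by length Prx averaged 2.16 CPM, above Mal (1.55) and Sox10 (1.5). The CPM ranges of Mbp (18.8 to 45.1) and Pmp22 (31.7 to 62.6) overlapped. Mean levels per length over the 24 libraries were 42.3 CPM per kilobase for S100b (range 21.3 to 75.0), 17.8 for Pmp22 (13.5 to 26.6), 3.56 for Mbp (2.22 to 5.32), 0.556 for Mal (0.177 to 1.35), 0.491 for Sox10 (0.258 to 0.787) and 0.386 for Prx (0.0811 to 1.23). On this scale the ranges of Mal, Sox10 and Prx overlapped, so their order is not separated by the spread over libraries. The ranges of S100b and Pmp22 overlapped too, while that of Mbp lay below Pmp22 and above the other 3. On the same scale Ucp1, the heat-producing uncoupling protein of brown adipocytes, averaged 2520 (1070 to 3990).

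**Figure D1:**
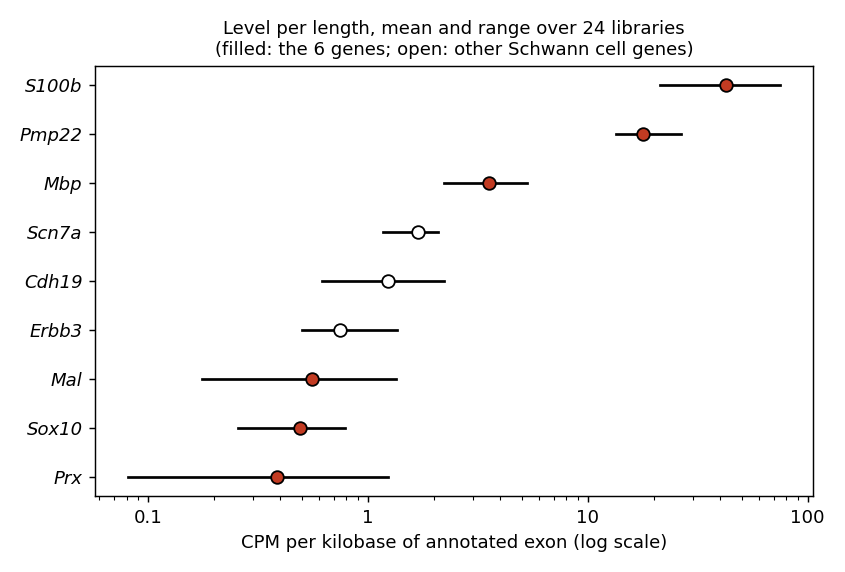
Level per length of the 6 genes (filled) and of Erbb3, Cdh19 and Scn7a, also Schwann cell genes (open): the x axis is CPM per kilobase of annotated exon on a log scale, points are means over 24 libraries and bars run from the lowest to the highest library. S100b at 42.3 and Pmp22 at 17.8 stand above the rest, and the bar of Prx is the widest, from 0.0811 to 1.23.

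Of 5 genes of central myelin and oligodendrocytes 1 was tested, and their summed level ran from 0.149 to 1.65 CPM over the 24 libraries. The tested gene was Olig1, an oligodendrocyte lineage factor, at 0.111 to 1.47 CPM (237 reads in all). Mog, a protein of central myelin, had 6 reads and Olig2, another oligodendrocyte factor, had none. Of 13 other myelin structure genes 10 were tested, and of 11 genes of non-myelinating and repair Schwann cells 10 were tested. Of 23 genes of sympathetic neurons and axons only Syp, Stmn2 and Rtn1 were tested. Th itself gave 1 read in all, so the neurons' own transcripts were mostly not detectable at this depth.

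Prx varied more from mouse to mouse than any other of the 6 genes. In WT saline it ran from 0.744 CPM to 4.61 with a median of 2.14, and in WT DCZ from 0.838 to 6.87 with a median of 1.21. In Th-Cre saline it ran from 0.453 to 3.64 with a median of 0.912, and in Th-Cre DCZ from 0.585 to 5.92 with a median of 2.4. High and low mice stood in every group, the 4 groups overlapped, and the 4 libraries with the most Prx (WT DCZ 4, Th-Cre DCZ DN2075, WT saline 8 and Th-Cre DCZ DN2205) were all from females. The lowest library held 7 Prx reads, for which the exact 95% Poisson interval was 0.182 to 0.933 CPM, and the highest held 127 reads, with 5.73 to 8.17 CPM. These intervals cover counting error only, and they do not meet.

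Mal spread nearly as widely. It ran from 1.26 to 3.35 CPM in WT saline (median 1.84), from 0.5 to 3.35 in WT DCZ (median 1.27), from 0.513 to 1.65 in Th-Cre saline (median 0.796) and from 0.490 to 3.76 in Th-Cre DCZ (median 1.36). Every Th-Cre saline library but DN2087 lay below all WT saline libraries. In the other 2 groups high and low mice were mixed. The 4 libraries with the most Mal were the same 4 as for Prx. The library with the highest sum of 6 epithelial genes (Th-Cre DCZ DN2207, 16.3 CPM) had 0.937 CPM of Mal, below its group's median.

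Sox10 was low and less variable, at 0.960 to 2 CPM in WT saline (median 1.71), 0.788 to 2.4 in WT DCZ (1.55), 0.841 to 1.66 in Th-Cre saline (1.37) and 0.799 to 2.11 in Th-Cre DCZ (1.53). The groups overlapped throughout. With 10 to 43 reads in a library, single Sox10 values carry wide counting error: the lowest library, at 0.788 CPM, had an interval of 0.431 to 1.32, and the highest, at 2.4 CPM, one of 1.74 to 3.23.

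Mbp and Pmp22, with at least 311 and 506 reads in every library, varied least. Mbp lies on chromosome 18 (82475146 to 82585637, plus strand), where it overlaps the pseudogene Rpl21-ps8 on the opposite strand. Mbp ran from 22 to 36.1 CPM in WT saline (median 29.5), 18.8 to 43.6 in WT DCZ (25.9), 24 to 36.3 in Th-Cre saline (28.7) and 25.6 to 45.1 in Th-Cre DCZ (34.7). Pmp22 ran from 38.6 to 48.2 CPM in WT saline (median 41.3), 31.7 to 62.6 in WT DCZ (36.2), 38.1 to 49.5 in Th-Cre saline (43.8) and 32.3 to 51.4 in Th-Cre DCZ (39.3). The highest library was 2.39-fold above the lowest for Mbp and 1.97-fold for Pmp22, against 15.2-fold for Prx, 7.66-fold for Mal, 3.51-fold for S100b and 3.05-fold for Sox10. In each of these 2 genes all 4 groups overlapped.

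The S100b medians were lower in both Th-Cre groups than in both WT groups. It ran from 56.3 to 85.9 CPM in WT saline (median 66.2), from 50 to 111 in WT DCZ (73.5), from 36.5 to 73.4 in Th-Cre saline (57.8) and from 31.7 to 71.5 in Th-Cre DCZ (56.8). The 3 highest libraries were WT males and the 3 lowest were Th-Cre females, with overlap in between.

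**Figure D2:**
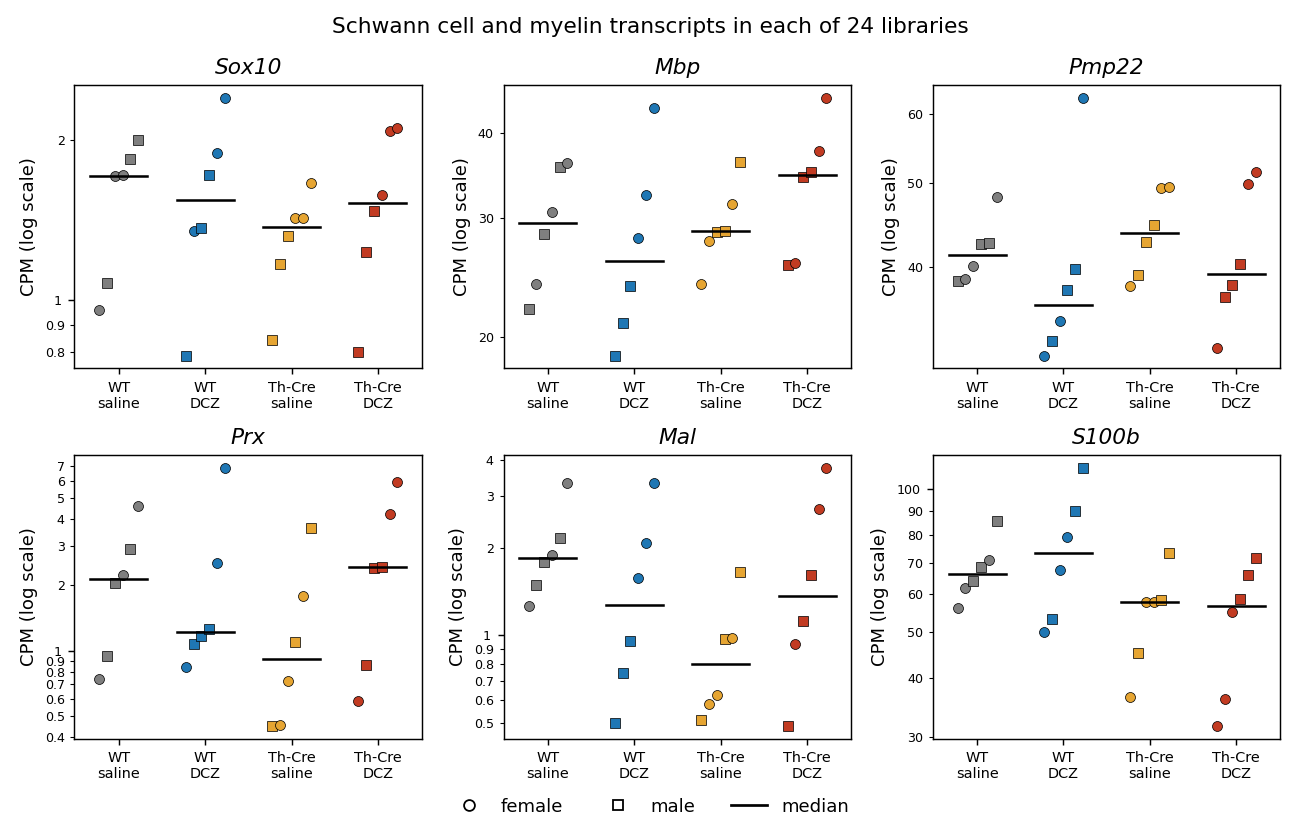
Each of the 6 genes in 24 libraries: the y axis is CPM on a log scale, columns are the 4 groups, circles are females, squares are males and bars are medians. Prx and Mal spread over the widest range inside each group, and the Th-Cre medians of S100b (57.8 and 56.8) lie below the WT medians (66.2 and 73.5).

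DCZ against saline in Th-Cre mice is the comparison closest to the series title. None of the 6 genes changed, beside 0.0229% of the 13129 genes tested (3 genes). At an unadjusted p under 0.05 the count was also 0 of 6, against 745 of all genes, and DESeq2 and limma-voom called 0 of 6 as well. The mean of Prx was 1.36 CPM ± 1.22 (SD, n = 6) with saline and 2.73 ± 2.03 with DCZ, so that the log2 fold change was 0.88 with an SE of 0.604 (edgeR adjusted p = 0.963). The mean of Mal was 0.887 CPM ± 0.426 with saline and 1.77 ± 1.24 with DCZ (log2 fold change 0.86 ± 0.425, adjusted p = 0.878); every ± beside a log2 fold change is an SE. Their 95% intervals ran from 0.774 to 4.35-fold for Prx and from 0.990 to 3.34-fold for Mal.

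These values leaned on few mice. The log2 fold change of Prx was 0.60 without DN2075 of the DCZ group and 1.67 without DN2087 of the saline group, and that of Mal was 0.59 without DN2205 and 1.27 without DN2087. In females alone the values were 1.92 for Prx and 1.79 for Mal, and in males alone 0.09 and 0.03, with no call in either. The difference between the sexes was not tested. Without the 6 muscle libraries Prx stood at 1.38 ± 0.786 and Mal at 0.86 ± 0.594.

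The remaining genes had narrower intervals in Th-Cre mice, Sox10 among them although it had the fewest reads of the 6 (601 in all). Mbp stood at a log2 fold change of 0.19 (95% interval of the fold 0.899 to 1.45), Pmp22 at -0.08 (0.783 to 1.14), Sox10 at 0.23 (0.830 to 1.66) and S100b at -0.07 (0.743 to 1.22). For S100b the sign turned without the muscle libraries, to 0.14. The median over the 6 genes was 0.21, and over all genes tested it was 0.00.

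In WT mice, which carry no Cre allele by their labels, none of the 6 changed either, beside 0.00762% of genes tested (1 gene). At an unadjusted p under 0.05 the count was again 0 of 6, against 1137 of all genes, and DESeq2 and limma-voom called none of the 6. Mal had the largest difference of the 6, from 1.99 CPM ± 0.736 with saline to 1.53 ± 1.06 with DCZ (log2 fold change -0.47 ± 0.396, adjusted p = 0.720). Prx averaged 2.29 CPM ± 2.32 with DCZ and 2.25 ± 1.42 with saline, and its log2 fold change of -0.04 became -0.68 without WT 4, the mouse with the most Prx. Mbp at -0.09, Pmp22 at -0.07, Sox10 at 0.00 and S100b at 0.14 were all within 1 SE of 0.

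The interaction asks whether the DCZ difference itself differed between Th-Cre and WT mice. It passed for none of the 6 genes, beside 0.00762% of genes tested (1 gene). Beside 980 of all 13129 genes, 1 of the 6 had an unadjusted p under 0.05. That gene was Mal, whose DCZ difference was 1.33 ± 0.577 higher on the log2 scale in Th-Cre than in WT (unadjusted p = 0.0296, adjusted p = 0.635). Prx stood at 0.91 ± 0.830 and the other 4 between -0.21 and 0.28. DESeq2 and limma-voom also called 0 of 6.

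The other Schwann cell genes gave no call after DCZ. Of 34 listed genes 24 were tested, and none of these 24 passed in either genotype or in the interaction. The lists cover myelin structure, myelin lipids, Schwann transcription and neuregulin signalling, and non-myelinating or repair Schwann cells. Among them Drp2, a partner of periaxin in the sheath, averaged 2.05 CPM after DCZ and 0.557 after saline in Th-Cre mice (log2 fold change 1.68 ± 0.601, adjusted p = 0.652). Egr2, the zinc finger factor that switches on myelin genes and also an immediate early gene in many cell types, averaged 9.52 CPM and 4.23 in the same groups (1.38 ± 0.486, adjusted p = 0.631). Of 10 tested myelin structure genes 8 had a positive sign in Th-Cre mice, with a median of 0.66, and 4 in WT mice, with a median of -0.02. Of all 13129 genes tested 6588 had a positive sign in Th-Cre mice and 6535 in WT mice. Several of the myelin structure genes moved together over the libraries, so their signs are not separate results. The comparisons after DCZ and those between genotypes share libraries, so signs are not independent between comparisons either.

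Under saline, none of the 6 genes differed between Th-Cre and WT mice by the main test, beside 24.9% of genes tested. Mal came closest, at 0.887 CPM ± 0.426 in Th-Cre and 1.99 ± 0.736 in WT (log2 fold change -1.09 ± 0.420, adjusted p = 0.0590). It passed with DESeq2 (adjusted p = 0.0362), with limma-voom (0.0430), with the compared groups fitted alone (0.0179), and without WT saline 2 (0.0295) or Th-Cre saline DN2087 (0.0170). Without the 6 muscle libraries it stood at -1.43 ± 0.557 (adjusted p = 0.126), from 3 Th-Cre and 5 WT saline mice.

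The remaining 5 genes did not pass in any fit of this comparison. S100b stood at -0.31 ± 0.173, Sox10 at -0.27 ± 0.243 and Prx at -0.63 ± 0.608, while Mbp at 0.01 ± 0.167 and Pmp22 at 0.07 ± 0.130 were near 0. The Prx value was -1.45 without DN2087 and -1.80 without the muscle libraries. The summed level of 13 muscle genes ran from 47.0 to 1550 CPM in Th-Cre saline and from 52.3 to 359 in WT saline; its part in these differences was not tested beyond the fits without those libraries.

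Among the other Schwann and nerve lists, 7 of 35 tested genes were lower in Th-Cre mice under saline and none was higher, beside 24.9% of all genes tested in either direction and 12.4% lower. Most of the listed genes did not pass. Of the 10 tested myelin structure genes all 10 had a negative sign (median -0.63), beside 6743 of all 13129 genes tested. Several of these genes moved together over the libraries, so the 10 signs are not separate results. Of the 10 genes 1 fell: Dhh, the desert hedgehog signal that Schwann cells send to the perineurium (log2 fold change -1.28 ± 0.431, adjusted p = 0.0328). Of the 10 tested non-myelinating and repair genes 2 fell, Gfra3, the co-receptor for artemin (-0.90 ± 0.223, adjusted p = 0.00624), and Cdh19, a cadherin of the Schwann lineage (-0.72 ± 0.191, adjusted p = 0.00960). Of 3 tested perineurial genes 1 fell, Itgb4 (-0.55 ± 0.144, adjusted p = 0.00842), and of 5 tested neurotrophic signals 3 fell, Nrtn and Clstn3 among them.

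Nrtn encodes neurturin, a survival factor for autonomic neurons. It averaged 3.80 CPM in Th-Cre and 7.16 in WT saline mice with no overlap of the groups (-0.91 ± 0.168, adjusted p = 0.00149). Clstn3, whose locus also makes an adipocyte form that aids S100b secretion, stood at -0.22 ± 0.0754 (adjusted p = 0.0338). Without the 6 muscle libraries, which leaves fewer mice, only Nrtn of the 7 that fell still passed (-1.02 ± 0.218, adjusted p = 0.0430), while over all genes the share called dropped to 0.813%. The log2 fold changes were then -1.89 for Dhh, -0.74 for Cdh19, -0.56 for Itgb4 and -0.21 for Clstn3, each at least about as large as with all libraries, and -0.52 for Gfra3, which was smaller. The count of 7 ran from 5 to 11 with single libraries left out, and was 11 without WT saline 2. Endothelial genes (5 of 7) and smooth muscle and pericyte genes (6 of 8) also fell in this comparison, with summed levels of 632 to 728 CPM against 621 to 1160 for the endothelial list and 472 to 503 against 497 to 674 for the mural list. Their part in the nerve-gene differences was not tested.

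After DCZ, S100b was lower in Th-Cre than in WT mice, and it was the only one of the 6 to change, beside 13.8% of genes tested in either direction, 7.02% lower and 6.75% higher. It averaged 53.1 CPM ± 16 in Th-Cre and 75.3 ± 23.3 in WT mice, a log2 fold change of -0.52 ± 0.173 (0.697-fold, 95% interval 0.545 to 0.892, adjusted p = 0.0459). Only 2 Th-Cre libraries lay below every WT library, so the groups overlapped. The call was near its threshold. It held without 11 of the 24 libraries taken out singly and was lost without the other 13, with adjusted p from 0.0186 (without WT DCZ 3) to 0.108 (without Th-Cre DCZ DN2075). It was also lost with limma-voom (0.0562), without the term for sex (0.0993), with the compared groups alone (0.0772) and within males (0.332) or females (0.294).

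The size of the S100b difference moved less than its call, from -0.69 in females to -0.37 in males. Without the 6 muscle libraries it stood at -0.49 ± 0.203 (adjusted p = 0.158). Under saline the S100b difference was then -0.47 ± 0.232 (adjusted p = 0.213), against -0.31 ± 0.173 with all libraries. The interaction of S100b was -0.21 ± 0.244 with all libraries and -0.02 ± 0.304 without the muscle libraries, so the difference was not shown to depend on DCZ. Of 9 brown adipocyte genes 3 also fell between genotypes after DCZ. Their summed level ran from 5870 to 8320 CPM in Th-Cre DCZ and from 8680 to 11300 in WT DCZ with no overlap. Its part in the S100b difference was not tested. Over the 24 libraries S100b and that sum had r = 0.29 (rho = 0.26, permutation p = 0.163 and 0.223, adjusted 0.591 and 0.608 over 42 gene and cell-type pairs), with 0.33 without the 2 farthest libraries, -0.45 within WT, -0.07 within Th-Cre, 0.66 in females and 0.31 in males. The positive sign was thus kept within each sex and not within either genotype.

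None of the other 5 genes passed between genotypes after DCZ. Mbp stood at a log2 fold change of 0.30 ± 0.166 (adjusted p = 0.238), Prx at 0.28 ± 0.567, Mal at 0.24 ± 0.395, Pmp22 at 0.06 ± 0.130 and Sox10 at -0.04 ± 0.236. Of the other lists Egr2 rose (9.52 CPM against 4.20, 1.5 ± 0.485, adjusted p = 0.0410). Cldn1, a tight-junction protein of the perineurium (-1.21 ± 0.383, adjusted p = 0.0370), Syp, a synaptic vesicle protein (-0.39 ± 0.0970, adjusted p = 0.0125), and Clstn3 (-0.27 ± 0.0753, adjusted p = 0.0206) fell. Stmn2 (0.00 ± 0.196) and Rtn1 (0.15 ± 0.333), also tested from the neuron and axon list, did not pass. Syp had 6256 reads over all libraries, against 26 for Snap25 and 3 for Syt1 of the same list. Which cells its reads came from was not tested. Without the muscle libraries none of the 4 genes that rose or fell passed. Their log2 fold changes were then 1.67 for Egr2, -1.10 for Cldn1, -0.39 for Syp and -0.27 for Clstn3, close to those with all libraries. The count of 4 was 2 with limma-voom, without the term for sex and with the compared groups alone. With single libraries left out it ran from 1 to 5, being 1 when DN2072 of Th-Cre DCZ or WT 5 or WT 6 of WT DCZ was left out, and 2 when DN2207 of Th-Cre DCZ or WT 4 of WT DCZ was.

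**Figure D3:**
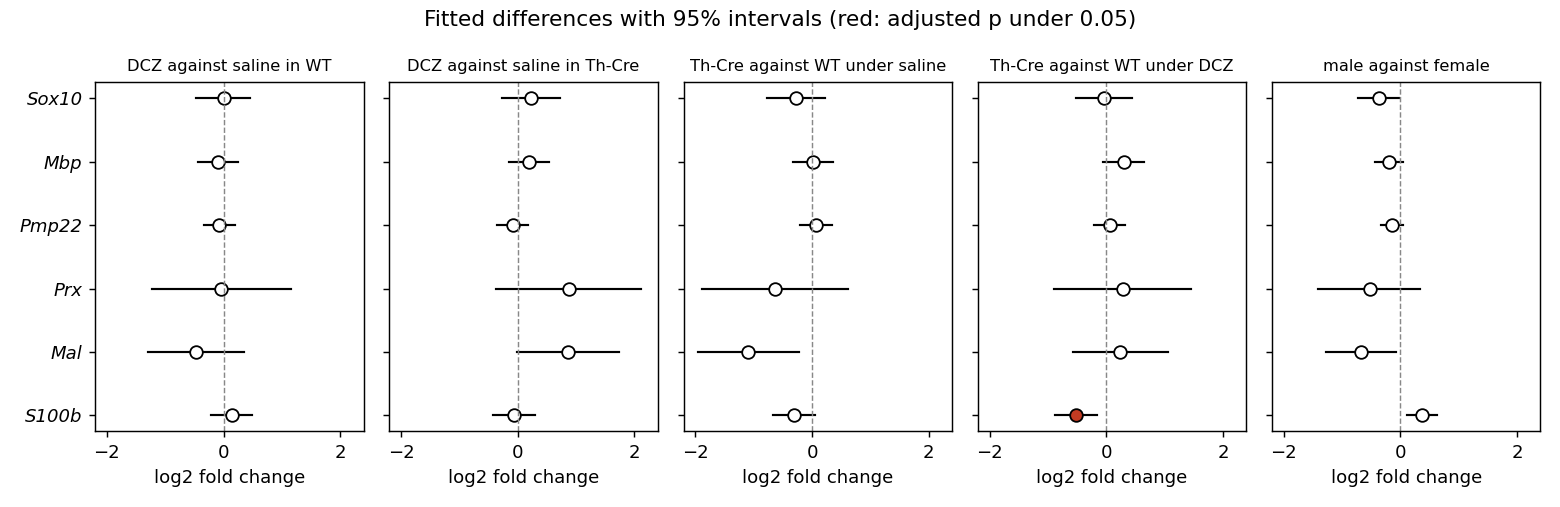
Fitted log2 fold changes of the 6 genes in 5 comparisons: the x axis is the log2 fold change, points are the fitted values, bars are 95% intervals and red marks an adjusted p under 0.05. The single red point is S100b, Th-Cre against WT under DCZ, at -0.52, and the bars of Prx and Mal are the widest.

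Between the sexes none of the 6 passed, beside 8.07% of genes tested (3.95% higher and 4.11% lower in males). At an unadjusted p under 0.05 the count was 3 of 6, against 2980 of all 13129 genes. S100b leaned towards males, with 70.5 CPM ± 18.1 (SD, n = 12) against 55.1 ± 14.6 in females (log2 fold change 0.37 ± 0.122, adjusted p = 0.0650), and it passed with DESeq2 (0.0317), with no filter on low counts (0.0456) and without WT DCZ 3 (0.0213) or Th-Cre saline DN2099 (0.0448). The other 5 leaned towards females. Mal averaged 1.17 CPM ± 0.565 in males and 1.92 ± 1.13 in females (-0.67 ± 0.292, adjusted p = 0.165), and Sox10 averaged 1.30 ± 0.404 and 1.69 ± 0.390 (-0.37 ± 0.170, adjusted p = 0.189). Prx stood at -0.53 ± 0.423, Mbp at -0.20 ± 0.119 and Pmp22 at -0.15 ± 0.0921.

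Among the other lists, Egr2 (1.23 ± 0.349, adjusted p = 0.0298) and Art3 (0.23 ± 0.0617, adjusted p = 0.0198) were higher in males. L1cam, an adhesion molecule of non-myelinating Schwann cells and axons (-0.32 ± 0.0993, adjusted p = 0.0466), and Cldn1 (-0.89 ± 0.272, adjusted p = 0.0445) were lower in males. Without the muscle libraries Egr2 alone of these 4 passed (1.58 ± 0.447, adjusted p = 0.0424), while Art3 stood at 0.21, L1cam at -0.27 and Cldn1 at -0.92, close to their values with all libraries. The count of 4 ran from 1 to 5 with single libraries left out, and was 1 without WT DCZ 4, WT saline 9 or Th-Cre saline DN2087. Of 13 muscle genes 8 were also lower in males, and 4 of the 6 muscle libraries came from females.

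Across the 24 mice, Mbp, Prx and Mal rose and fell together and Pmp22 followed them in part, while S100b did not follow them. Of 15 pairs of the 6 genes 5 had an adjusted permutation p under 0.05 for Pearson's r of log2 CPM, all of them among Mbp, Prx, Mal and Pmp22. The strongest pair was Mbp and Prx (r = 0.74, rho = 0.71, permutation p = 6e-05 and 0.00014, adjusted 0.0009 and 0.0021). Its r was 0.76 without the 2 libraries farthest from the median of Mbp, 0.86 within WT, 0.79 within Th-Cre, 0.64 in males and 0.84 in females. Since library numbers 1 to 12 and 13 to 24 are the genotypes, those are also the values within each run of library numbers.

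Prx and Mal followed (r = 0.69, rho = 0.61, permutation p = 0.00035 and 0.0023, adjusted 0.00262 and 0.0115), with 0.60 without the 2 farthest libraries, 0.50 within WT and 0.82 within Th-Cre. Mbp and Mal had r = 0.64 (rho = 0.58, permutation p = 0.00091 and 0.00341, adjusted 0.00455 and 0.0128), with 0.51, 0.73 and 0.86 in the same order. Mbp and Pmp22 had r = 0.60 (rho = 0.61, permutation p = 0.00169 and 0.00202, adjusted 0.00634 and 0.0115), with 0.58, 0.58 and 0.61. Pmp22 and Prx had r = 0.52 (rho = 0.41, permutation p = 0.00985 and 0.0457, adjusted 0.0295 and 0.114), with 0.28, 0.64 and 0.48, so its size depended on the 2 farthest libraries. After group and sex means were removed its r was 0.62 (adjusted permutation p = 0.00405), and without the muscle libraries 0.47 (0.146). Pmp22 and Mal did not pass (r = 0.36, rho = 0.37, adjusted permutation p = 0.162 and 0.159), with r = 0.13 without the 2 farthest libraries.

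The factor Sox10 was only loosely tied to the myelin genes, with r from 0.08 (Pmp22) to 0.43 (Mal, rho = 0.47, adjusted permutation p = 0.0871 and 0.0678). All 5 pairs with S100b had r below 0, from -0.38 (Mbp, rho = -0.31, adjusted permutation p = 0.137 and 0.246) to -0.08 (Prx, rho = 0.01, adjusted permutation p = 0.716 and 0.979), and none passed. Within Th-Cre mice S100b had r = -0.70 with Pmp22 and within WT mice r = 0.22. The difference between these 2 values was not tested.

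Other Schwann cell genes were set against the 6 in the same way, chosen with results known. Of the pairs with Erbb3, a neuregulin receptor, Cdh19 and Scn7a, a sodium channel of non-myelinating Schwann cells, only Mal and Scn7a passed for Pearson's r (r = 0.55, rho = 0.56, permutation p = 0.00517 and 0.00526, adjusted 0.0258 and 0.0225 over 30 pairs). Its r was 0.52 without the 2 farthest libraries, 0.42 within WT, 0.54 within Th-Cre, 0.93 in females and 0.08 in males. The difference between the sexes was not tested. Of 42 pairs of the 6 genes with the summed levels of 7 other cell types (brown adipocytes, fibroblasts, endothelium, mural cells, macrophages, T cells and skeletal muscle), 0 passed adjustment. These pairs were tested over all 24 libraries only. Over the 18 libraries left without the muscle libraries, S100b had r = 0.74 with the skeletal muscle sum, against -0.09 over all 24. Of the genes in that sum, Myl1 was at 44 CPM or more in every library, with a median of 59.3 over all 24. No other gene of the list had a median above 0.953 CPM, so in libraries with little muscle signal the sum is mostly Myl1. What the r of 0.74 reflects was not tested. Mal had r = -0.64 with the fibroblast sum over the same 18 libraries, against -0.41 over all 24.

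**Figure D4:**
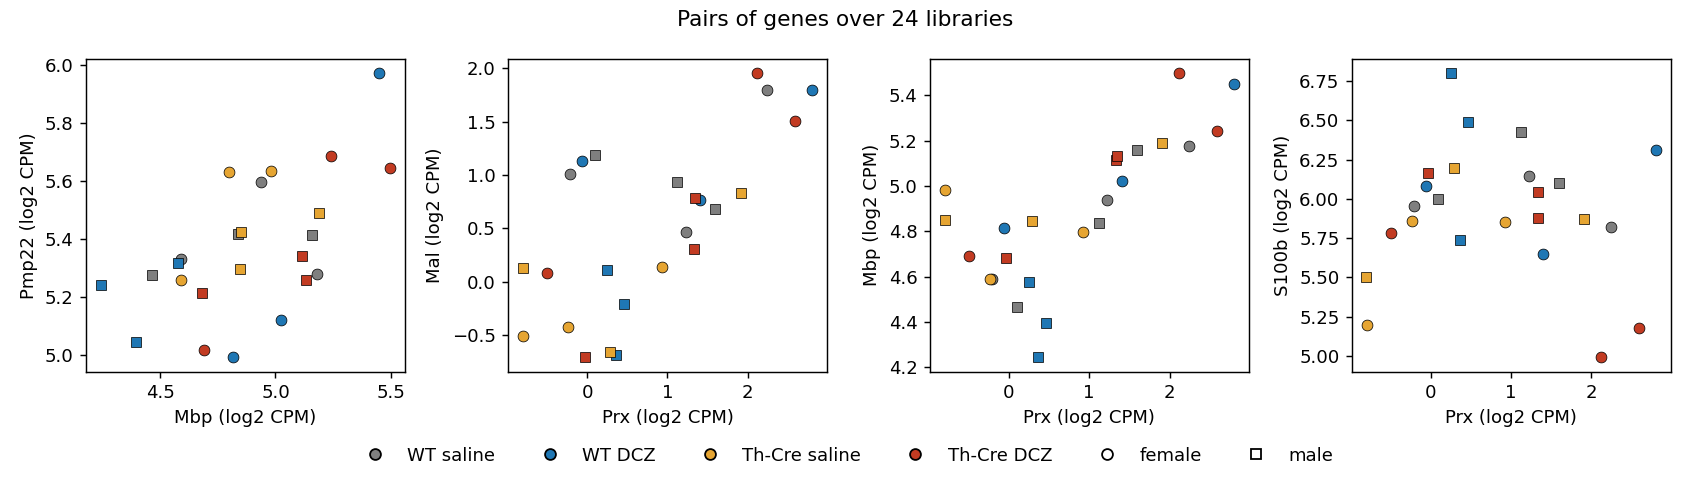
Pairs of genes over 24 libraries: axes are log2 CPM, colours are the 4 groups, circles are females and squares are males. Pmp22 rises with Mbp (r = 0.60), and Mal (0.69) and Mbp (0.74) rise with Prx, with mice of all groups along each trend, while S100b shows no trend with Prx (r = -0.08).

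The genes most like each of the 6, by r of log2 CPM after group and sex means were removed, over 24 libraries and all genes tested, are given as a description with no test. For Prx the first 5 included Drp2 (0.86), Gatm (0.86), Cldn19 (0.84) and Ncmap (0.82), of which all but Gatm are on the list of other myelin structure genes. For Mbp they included Gatm (0.85), Nfasc (0.85), which encodes the nodal protein neurofascin, Lrrc59 (0.84) and Drp2 (0.83). For Mal they included Itgb4 (0.81), Plekha4 (0.78) and Gatm (0.78). Among the 50 genes most like Prx were 11 of 29 tested Schwann cell genes (the remaining 5 of the 6 included), among those most like Mal 10, and among those most like Mbp 6.

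The other 3 genes had different company. For Pmp22 the most alike were Wwp1 (0.76), Rps6kb1 (0.75), Setd7 (0.74), Map3k7 (0.72) and Setd3 (0.70), none on a Schwann cell list, with 3 of 29 Schwann cell genes in its first 50. For Sox10 they were Tmod2 (0.74), Tuba1a (0.73), Tctn3 (0.71), Kdelc1 (0.69) and Gper1 (0.69), and for S100b Bcl7a (0.79), L3hypdh (0.74), Clybl (0.74), Pm20d1 (0.73) and Ltbp2 (0.71). Neither had a Schwann cell gene in its first 50. The median r with the 29 Schwann cell genes was 0.52 for Mbp, 0.42 for Mal, 0.38 for Prx, 0.35 for Pmp22, 0.18 for Sox10 and -0.14 for S100b, while the median over all genes tested was between -0.01 and 0.01 for each.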

How the data were processed

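Polyadenylated RNA of 24 iBAT samples was sequenced from TruSeq libraries, per the labels' protocols. The submitters' processing notes name kallisto 0.44.0 and the build GRCm38.p6; for the transcript set, how transcripts were summed and strand, the sources used here say nothing. The authors deposited estimated counts per gene symbol as whole numbers, the number of pseudoaligned reads per library as counts, the percent pseudoaligned (84.2 to 88.7 percent, as deposited), and a normalized signal per genotype that checking showed to be the deposited count divided by 1 factor per library; this signal served only as an alternative. Filtering was by filterByExpr over groups, scaling by TMM, and testing by the edgeR 4.0.16 quasi-likelihood test (R 4.3.3) with group means plus a sex term over all 24 libraries, with Benjamini-Hochberg adjustment over 13129 genes. Every adjusted p of a gene without another method named comes from this test, whose fits were tested on simulated data. Log2 CPM used a prior count of 2. Permutation p-values are two-sided (100000 draws), adjusted within each family of pairs. Alternatives were DESeq2 1.42.0, limma-voom 3.58.1, other factors, filters, covariates and sets of libraries. The text names all 6 genes in every comparison, up to 4 genes with the smallest p from each of 7 further Schwann and nerve lists, and the 5 most alike genes. The 6 genes and the lists were chosen with earlier results of these data known, and the comparison genes of the correlations and the further lists' counts without muscle libraries were added after seeing the data. Some listed genes counted in the list totals are not reported here by name.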

Additional observations from a re-analysis of the deposited data

Results flagged for a closer look

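In WT DCZ 4, a female, Prx was at 6.87 CPM while the next of the 6 mice in its group was at 2.52. In the same library Pmp22 was at 62.6 CPM, with the next mouse at 39.8. Both values were singled out because the gap to the nearest mouse exceeded Dixon's 95% critical value for 6 samples (it was 0.721 of the group's range for Prx and 0.738 for Pmp22). Of 24 gene and group combinations examined these 2 stood apart, and chance gives about 1 in 20. The muscle score of this library was not raised (-1.11 log2 CPM).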

How the results depend on the processing

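Of 391 log2 fold changes of the 6 genes under alternatives other than leaving out single libraries, 352 kept both direction and side of the threshold, and of 864 with 1 library left out 815 did. The count of the 6 genes called under saline between genotypes rose from 0 to 1 (Mal) with DESeq2, limma-voom and the 2 groups alone, and was 0 to 1 without single libraries. Under DCZ it dropped from 1 to 0 with limma-voom, no term for sex, the 2 groups alone, without the muscle libraries, in males and in females, and was 0 to 1 without single libraries. By sex it rose from 0 to 1 (S100b) with DESeq2 and no filter, and was 0 to 1 without single libraries.
Signs turned only for values that passed in neither fit. For Sox10 after DCZ in WT (0.00) they were 0.00 with RLE factors, 0.01 with DESeq2, no filter and the deposited normalized values, 0.04 with limma-voom, 0.03 without sex, 0.02 in the 2 groups alone, 0.51 with a term for low or high library number and 0.37 in females. With upper-quartile factors Mbp under saline was -0.02. With limma-voom the interaction of Pmp22 was 0.01 and Sox10 under DCZ 0.00. Without sex Prx in WT was 0.04. Without the muscle libraries S100b after DCZ in Th-Cre was 0.14, Mbp under saline -0.01, Prx between genotypes under DCZ -0.11, and r of S100b and Prx 0.07. With the library-number term the interactions were 0.20 for Pmp22 and -0.27 for Sox10. In males S100b after DCZ in Th-Cre was 0.15 and the interaction of Pmp22 0.04. In females the DCZ values in WT were 0.20 for Mbp, 0.02 for Pmp22, 0.47 for Prx and 0.13 for Mal, the interaction of Sox10 was -0.02, Mbp under saline -0.12, Sox10 under saline 0.05 and under DCZ 0.03. The cause was not tested. Without single libraries signs turned within ranges of -0.15 to 0.13 (Sox10, WT DCZ), -0.68 to 0.24 (Prx, WT DCZ), -0.16 to 0.01 (S100b, Th-Cre DCZ), -0.09 to 0.14 (Pmp22, interaction), -0.08 to 0.11 (Mbp, saline), and under DCZ -0.05 to 0.55 (Mal), -0.02 to 0.22 (Pmp22), -0.15 to 0.08 (Sox10) and -0.04 to 0.95 (Prx).
Over all genes, the count between genotypes under saline was 3270 and 109 without the muscle libraries, 658 in males and 6 in females; under DCZ it was 1808 and 535, 735 and 30, and 1081 in the 2 groups alone. After DCZ in Th-Cre it was 3, with 1 to 40 over alternatives, in WT 1, with 0 to 13, and for the interaction 1, with 0 to 16. The number of pairs of the 6 genes that passed was 5, with 4 without the muscle libraries, 5 after group and sex means were removed and 5 with a prior count of 0.5. No paired analysis was possible because the mouse numbers are not shared between groups. Sox10, Prx and Mal had as few as 7 to 10 reads in a library, which limits what these comparisons could detect.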
